A study of Homo sapiens with 6 samples.

Results

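The genes of cholesterol synthesis, uptake and regulation were followed in Kasumi-1 cells, which come from a human acute myeloid leukemia, are of myeloblast type and carry the AML1-ETO (RUNX1-RUNX1T1) fusion. The set was a list of 31 gene symbols, matched by name among the 62016 genes of each deposited table: 19 enzymes of cholesterol synthesis, 5 genes of sterol sensing, and 7 genes of the liver X receptor (LXR) system, sterol efflux, transport and storage. All cells had been infected for 4 days with PLKO viruses made in 293T cells, expressing either of 2 hairpins against JMJD1C (shRNA63 and shRNA95) or a control shRNA, with 2 libraries per group, so the controls carried virus too. JMJD1C belongs to the KDM3 family of JmjC proteins, and the study asked what its depletion changes in RNA. The authors combined the 2 libraries of a group into 1 FPKM value (fragments relative to transcript length and to all mapped fragments), so no value per library can be shown here. No label says that the 2 libraries came from separate cultures, and the p-values therefore measure only how much these libraries vary, and that variation may be technical. A further table set 1 library of cells with a hairpin against AML1-ETO beside 1 control library, and both libraries were from a different series.

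A gene was counted as measured where the authors had tested it and its FPKM was at least 1 in the higher group, and as called where their adjusted p-value (q) was under 0.05. By this rule 29 of the 31 genes were measured in each JMJD1C table. The error given beside a log2 fold change is that change divided by the authors' test statistic, and 95% intervals are built from it. JMJD1C itself fell from 30.4 to 13.7 FPKM with shRNA63, a log2 change of -1.15 (error 0.30, q = 0.00214) by the authors' deposited table. The libraries labelled shRNA95 had 25.1 FPKM of JMJD1C and their controls 29.4 (log2 change -0.23, error 0.30, 95% interval -0.81 to 0.35, q = 0.938, from the authors' deposited table). The targeted mRNA thus gives no check of that label, and every direction given for shRNA95 rests on the label alone. The locus of JMJD1C is shared by 6 genes.

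As background, cells build cholesterol from acetyl-CoA in a long chain of enzymes: the mevalonate arm makes isoprenoid units, and the squalene and sterol arm joins and folds them into lanosterol and trims that to cholesterol. Most of these enzyme genes are activated by the transcription factor SREBP-2, encoded by SREBF2, with SREBP-1 from SREBF1 acting more on fatty acid synthesis. When sterols are low in the endoplasmic reticulum, SCAP carries SREBP to the Golgi, where proteases release its active part; when sterols are high, INSIG1 and INSIG2 hold SCAP back. INSIG1 is itself a target of SREBP. LXR, encoded by NR1H2 and NR1H3, acts on the other side and turns on efflux and disposal when oxysterols accumulate.

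Most cholesterol genes were well expressed in the control cells. Among the 29 measured genes the control level in the shRNA63 table ran from 6.36 FPKM for HSD17B7, a reductase of the sterol arm, to 388.6 FPKM for FDFT1, the squalene synthase. Their median was 43.57 FPKM, against 14.02 FPKM for all measured genes. FDPS (189.2 FPKM), DHCR7 (163.8 FPKM), EBP (148.0 FPKM), SQLE (126.1 FPKM) and IDI1 (111.6 FPKM) followed FDFT1. The efflux pumps stood at the other end. ABCA1 was at 0.00211 FPKM in controls and 0.00893 with shRNA63, and was not tested. ABCG1 was at 0.266 and 0.316 FPKM in the same table, and at 0.258 and 0.113 FPKM in the shRNA95 table. Both pumps were therefore left out of the counts below. FPKM is scaled per transcript length, so these levels can be set side by side between genes. No spread between libraries can be given for them.

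**Figure D1:**
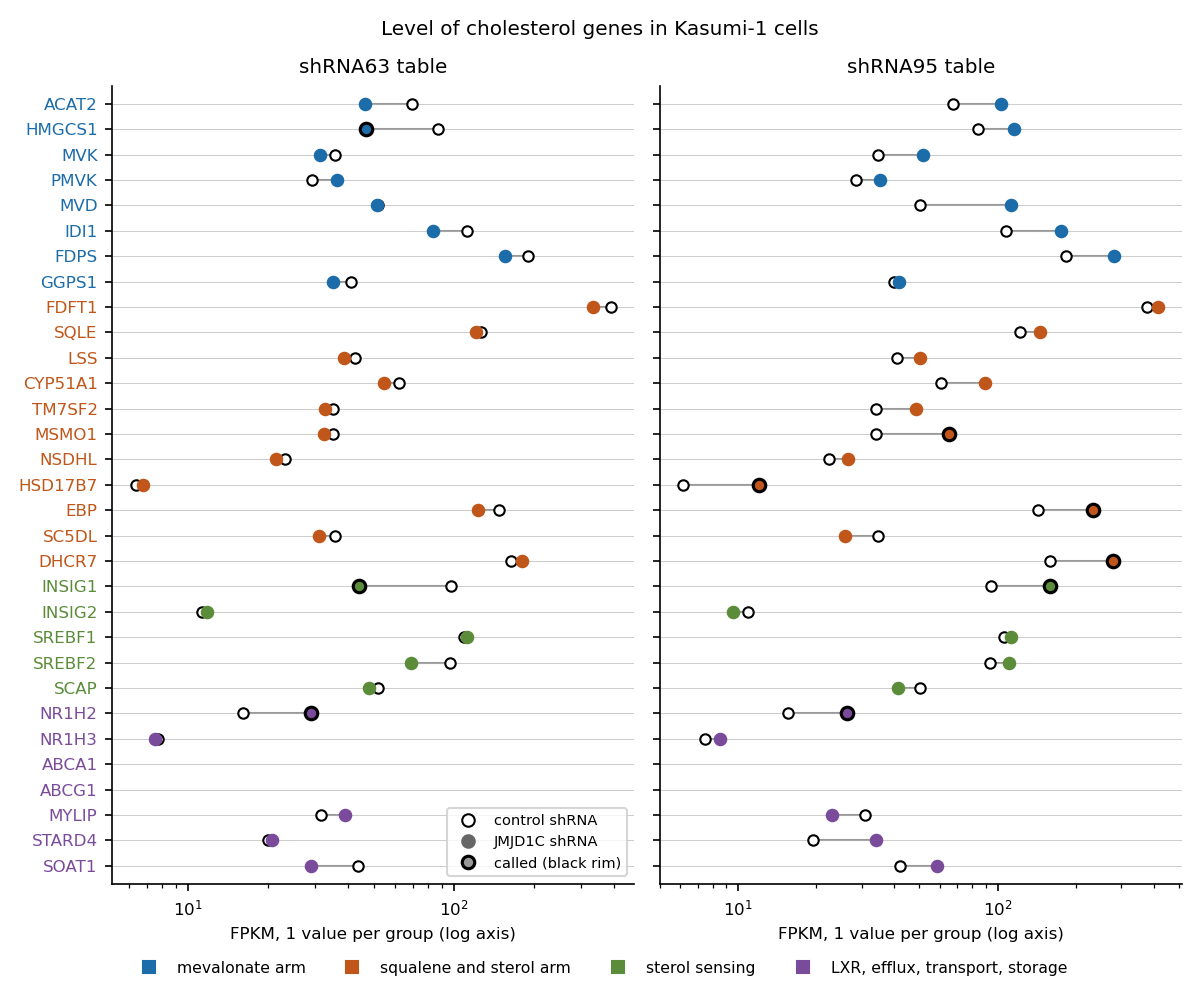
Level of each cholesterol gene (FPKM, log axis, 1 group value per point) in control cells (open) and with the JMJD1C shRNA (filled, black rim where called), in the shRNA63 table on the left and the shRNA95 table on the right. INSIG1 moves down from 97.3 to 44.0 FPKM on the left and up to 159.5 from 94.3 FPKM on the right; ABCA1 and ABCG1 were not measured and have no point.

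With shRNA63, 1 of the 29 measured genes was called higher and 2 were called lower. INSIG1 fell, HMGCS1, the synthase of the mevalonate arm, fell, and NR1H2, which encodes LXR-beta, rose. Over all 14475 measured genes 2.49% were called higher and 3.25% lower, so counts of 1 and 2 among 29 are near the background and say nothing of the group as a whole. At an unadjusted p under 0.05 the authors' deposited table held 1 higher and 4 lower, against 1012 and 1069 of all measured genes. The log2 ratios, computed as log2((FPKM + 1)/(control FPKM + 1)), were below 0 for 21 of 29 genes, against 7082 of all 14475 measured genes. The median of the 29 was -0.11, against 0.0087 over all measured genes.

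In the libraries labelled shRNA95, 6 of the 29 genes were called higher and 0 lower. These were MSMO1, HSD17B7, EBP and DHCR7, which all act in the sterol arm, INSIG1 and NR1H2. The background in that table was 3.06% called higher and 1.98% called lower of 14391 measured genes. At an unadjusted p under 0.05 the counts in the authors' deposited table were 12 higher and 1 lower, the latter being MYLIP, against 1149 higher and 761 lower of all 14391 measured genes. Ratios were above 0 for 25 of 29 genes, with a median of 0.46, against 0.032 over all measured genes, of which 54.0% were above 0. The comparisons share their control libraries, so their values are given side by side, and the difference between hairpins has its own test.

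The mammalian promoters that SREBP acts on usually pair a sterol regulatory element with sites for NF-Y, which reads the CCAAT box, and for SP1, which reads the GC box. The start-site sequences of 5 genes are shown: INSIG1, HMGCS1, MSMO1 and NR1H2, which were called, and SREBF2, the factor gene. HSD17B7, EBP and DHCR7 were also called and are not printed. A link between these sequences and the changes in RNA was not tested. Each is the 250 bases before the most upstream RefSeq start of the gene, 5′ to 3′ on the gene's strand, in GRCh38.p14, a build other than the hg19 of the tables. Capitals mark CCAAT, or ATTGG where it lies on the opposite strand, and in SREBF2 also the match to the sterol regulatory element. The windows are SREBF2 chr22:41832855-41833104 (+ strand), INSIG1 chr7:155297628-155297877 (+ strand), HMGCS1 chr5:43313413-43313662 (- strand), MSMO1 chr4:165327419-165327668 (+ strand) and NR1H2 chr19:50376207-50376456 (+ strand).
SREBF2: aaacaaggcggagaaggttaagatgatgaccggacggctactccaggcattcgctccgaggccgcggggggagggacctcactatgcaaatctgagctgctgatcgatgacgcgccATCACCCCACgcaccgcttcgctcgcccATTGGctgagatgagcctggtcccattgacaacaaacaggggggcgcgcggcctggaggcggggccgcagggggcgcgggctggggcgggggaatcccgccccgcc
INSIG1: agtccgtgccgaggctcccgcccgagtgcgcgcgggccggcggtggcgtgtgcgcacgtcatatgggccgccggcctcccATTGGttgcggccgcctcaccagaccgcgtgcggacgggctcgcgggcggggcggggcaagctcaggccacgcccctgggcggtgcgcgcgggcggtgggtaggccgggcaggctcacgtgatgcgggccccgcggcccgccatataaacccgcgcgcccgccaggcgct
HMGCS1: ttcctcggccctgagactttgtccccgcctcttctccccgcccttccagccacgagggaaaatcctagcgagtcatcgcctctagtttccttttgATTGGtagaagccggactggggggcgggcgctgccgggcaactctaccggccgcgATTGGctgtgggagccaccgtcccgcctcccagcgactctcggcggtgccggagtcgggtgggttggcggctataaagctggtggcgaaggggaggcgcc
MSMO1: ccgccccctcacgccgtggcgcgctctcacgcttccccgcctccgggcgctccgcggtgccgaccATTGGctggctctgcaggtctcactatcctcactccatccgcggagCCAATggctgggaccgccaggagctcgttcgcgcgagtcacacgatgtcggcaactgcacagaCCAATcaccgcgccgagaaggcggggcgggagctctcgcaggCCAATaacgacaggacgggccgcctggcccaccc
NR1H2: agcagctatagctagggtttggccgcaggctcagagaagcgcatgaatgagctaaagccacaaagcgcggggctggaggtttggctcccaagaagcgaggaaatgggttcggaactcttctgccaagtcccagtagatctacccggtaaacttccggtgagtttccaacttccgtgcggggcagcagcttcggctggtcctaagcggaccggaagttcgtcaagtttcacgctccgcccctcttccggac

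Of the 31 genes, 27 had windows in the RefSeq table (38 windows of 300 bases, running 50 bases past the start), and ACAT2, FDFT1, SQLE and ABCG1 had none. CCAAT, searched on both strands, lay in a window of 20 of the 27 genes (74.1%), against 39.7% of 27305 genes with a window and 43.1% of the 9351 of them that were measured here. GGGCGG, the GC box, also on both strands, lay in 26 of 27 (96.3%), against 48.3% of all genes and 77.3% of measured genes. The core of the sterol regulatory element, searched as TCACNCCAC on both strands, lay in 1 of 27, SREBF2, against 1.39% of all genes and 1.37% of measured genes. In SREBF2 it began at -133 from the start, and with the preceding A it makes the longer 10-letter form found in 0.19% of all genes. The longer form contains the core, and no other searched motif contains another. MSMO1 carried 4 CCAAT matches, beginning at -185, -139, -76 and -34 from the start, HMGCS1 had 2, at -155 and -100, and INSIG1 had 1, at -170. NR1H2 had none. A match is a description of letters, and a missing match says only that these letters are not in this window: many working elements differ from the searched core.

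**Figure D2:**
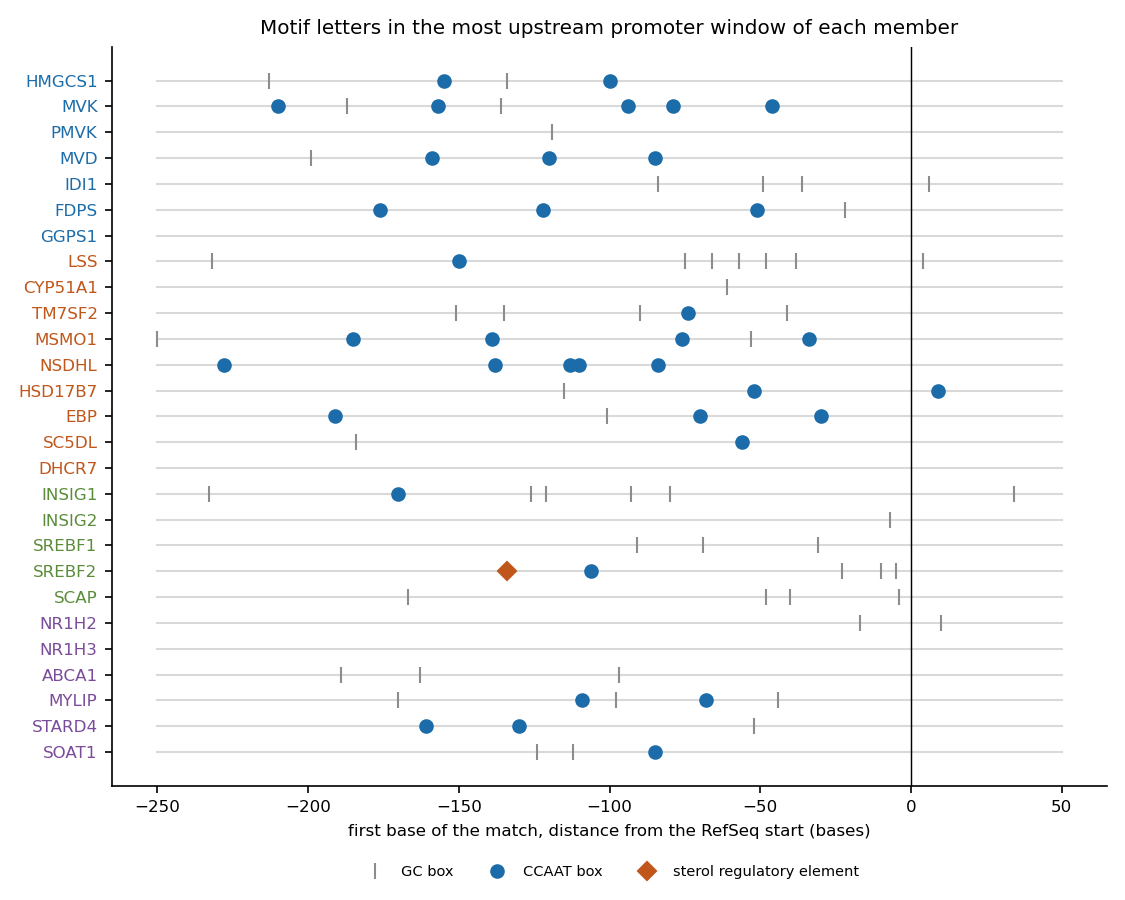
Position of motif letters (bases from the RefSeq start, 0 line = start) in the most upstream window of the 27 cholesterol genes with one; each grey line is 1 window, and symbols mark the first base of a match on either strand. CCAAT (blue) lies in 16 of the 27 windows drawn and the sterol regulatory element (orange) in that of SREBF2.

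HMGCS1 joins acetyl-CoA to acetoacetyl-CoA and so commits carbon to the mevalonate arm. Its group value was 86.9 FPKM in controls and 46.7 FPKM with shRNA63, 53.7% of control. The log2 fold change was -0.90 (error 0.30, 95% interval -1.49 to -0.30, q = 0.00214) in the authors' deposited table. The libraries labelled shRNA95 had 116.0 FPKM and their controls 84.2 FPKM, for which the authors' deposited table gives a log2 change of 0.46 (error 0.31, 95% interval -0.14 to 1.07, q = 0.345). HMGCS1 (ENSG00000112972) lies on chromosome 5 from 43287703 to 43313614 in hg19, where it overlaps 1 other gene.

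The other 7 genes of the mevalonate arm were called in neither table; at an unadjusted p under 0.05 the authors' deposited tables held 1 of the 8, HMGCS1, with shRNA63 and 4, adding MVD, IDI1 and FDPS, with shRNA95. With shRNA63 ratios were below 0 for 7 of the 8 genes of the arm, with a median of -0.25. In the libraries labelled shRNA95 all 8 were above 0, with a median of 0.58. Over all measured genes 51.1% were above 0 with shRNA63 and 54.0% with shRNA95. ACAT2, the thiolase that makes acetoacetyl-CoA, was at 46.1 against 69.6 FPKM with shRNA63 and at 103.3 against 67.5 FPKM with shRNA95. Its locus holds 8 genes and its errors were 0.81 and 0.75 in the authors' deposited tables, among the widest of the set. MVK, the mevalonate kinase, was at 31.3 against 35.7 FPKM and at 51.4 against 34.6 FPKM in the same order. PMVK, which adds the next phosphate, stood above control in both tables, at 36.3 against 29.3 and 35.3 against 28.4 FPKM, with a log2 change of 0.31 in each of the authors' deposited tables.

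MVD, the decarboxylase that yields isopentenyl pyrophosphate, was level with shRNA63 (51.6 against 51.9 FPKM) and at 112.6 against 50.3 FPKM in the libraries labelled shRNA95. That is the highest ratio of the 29 genes in the shRNA95 table, but its error was wide: the log2 fold change was 1.16 (error 0.62, 95% interval -0.04 to 2.37, q = 0.204) in the authors' deposited table. IDI1, the isomerase, was at 83.7 against 111.6 FPKM with shRNA63 and at 176.0 against 108.1 FPKM with shRNA95 (q = 0.638 and 0.169 in the authors' deposited tables). FDPS, which builds farnesyl pyrophosphate, was at 155.8 against 189.2 FPKM and at 281.1 against 183.3 FPKM (q = 0.812 and 0.175 in the authors' deposited tables). GGPS1, which extends farnesyl to geranylgeranyl pyrophosphate and so feeds protein prenylation rather than sterols, was at 35.1 against 41.0 and 41.9 against 39.8 FPKM. The 7 pseudogene copies of FDPS were each under 0.14 FPKM in every group.

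In the squalene and sterol arm, 11 enzymes long, none was called with shRNA63, and the authors' deposited table held 0 of them at an unadjusted p under 0.05. The ratios in that table ran from -0.26 to 0.14, with a median of -0.11. In the libraries labelled shRNA95 4 of the 11 were called higher, 10 had a ratio above 0, and the median was 0.50.

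MSMO1, an oxidase of sterol demethylation after lanosterol, rose from 34.0 to 65.2 FPKM in the libraries labelled shRNA95, 191.5% of control. The log2 fold change was 0.94 (error 0.27, 95% interval 0.41 to 1.47, q = 0.00216) in the authors' deposited table. With shRNA63 it stood at 32.5 against 35.1 FPKM (log2 fold change -0.11, error 0.27, q = 0.999 in the authors' deposited table). MSMO1 (ENSG00000052802) is alone on its locus, chromosome 4 from 166248775 to 166264312 in hg19.

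HSD17B7, the ketoreductase of the same demethylation steps, rose from 6.16 to 12.1 FPKM with shRNA95, a log2 change of 0.97 (error 0.26, q = 0.00216) by the authors' deposited table. With shRNA63 it was at 6.79 against 6.36 FPKM. A near-identical copy, HSD17B7P2, had 0.6998 and 1.16 FPKM in the shRNA95 table, and reads that fit both make either value uncertain. EBP, the isomerase that moves the double bond of the sterol ring, rose from 143.5 to 233.9 FPKM in the libraries labelled shRNA95, with a log2 change of 0.70 (error 0.27, q = 0.00728) by the authors' deposited table. It stood at 123.1 against 148.0 FPKM with shRNA63. DHCR7, the reductase that finishes the pathway from 7-dehydrocholesterol, rose from 158.8 to 278.4 FPKM with shRNA95, a log2 change of 0.81 (error 0.31, q = 0.0421) by the authors' deposited table. With shRNA63 it was at 181.0 against 163.8 FPKM, a log2 change of 0.14 in the authors' deposited table.

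CYP51A1, the lanosterol demethylase, came closest to a call among the rest, at 89.7 against 60.4 FPKM in the libraries labelled shRNA95 (log2 fold change 0.57, error 0.23, q = 0.0841 in the authors' deposited table). The enzymes that open the arm had smaller values. FDFT1, the squalene synthase, was at 416.2 against 376.5 FPKM with shRNA95 and 332.1 against 388.6 FPKM with shRNA63. SQLE, the epoxidase, was at 146.1 against 122.2 and at 121.0 against 126.1 FPKM in the same order, and LSS, which closes the sterol rings, at 50.4 against 41.0 and 38.4 against 42.3 FPKM. TM7SF2, a sterol reductase, was at 48.7 against 34.2 and 32.9 against 35.2 FPKM, and NSDHL, a dehydrogenase of the demethylation steps, at 26.7 against 22.4 and 21.4 against 23.1 FPKM. SC5DL, the desaturase before DHCR7, stood below control in both tables, at 25.8 against 34.7 and 31.04 against 35.8 FPKM, and was called in neither. It was the only enzyme of the 19 with a ratio below 0 in the shRNA95 table.

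**Figure D3:**
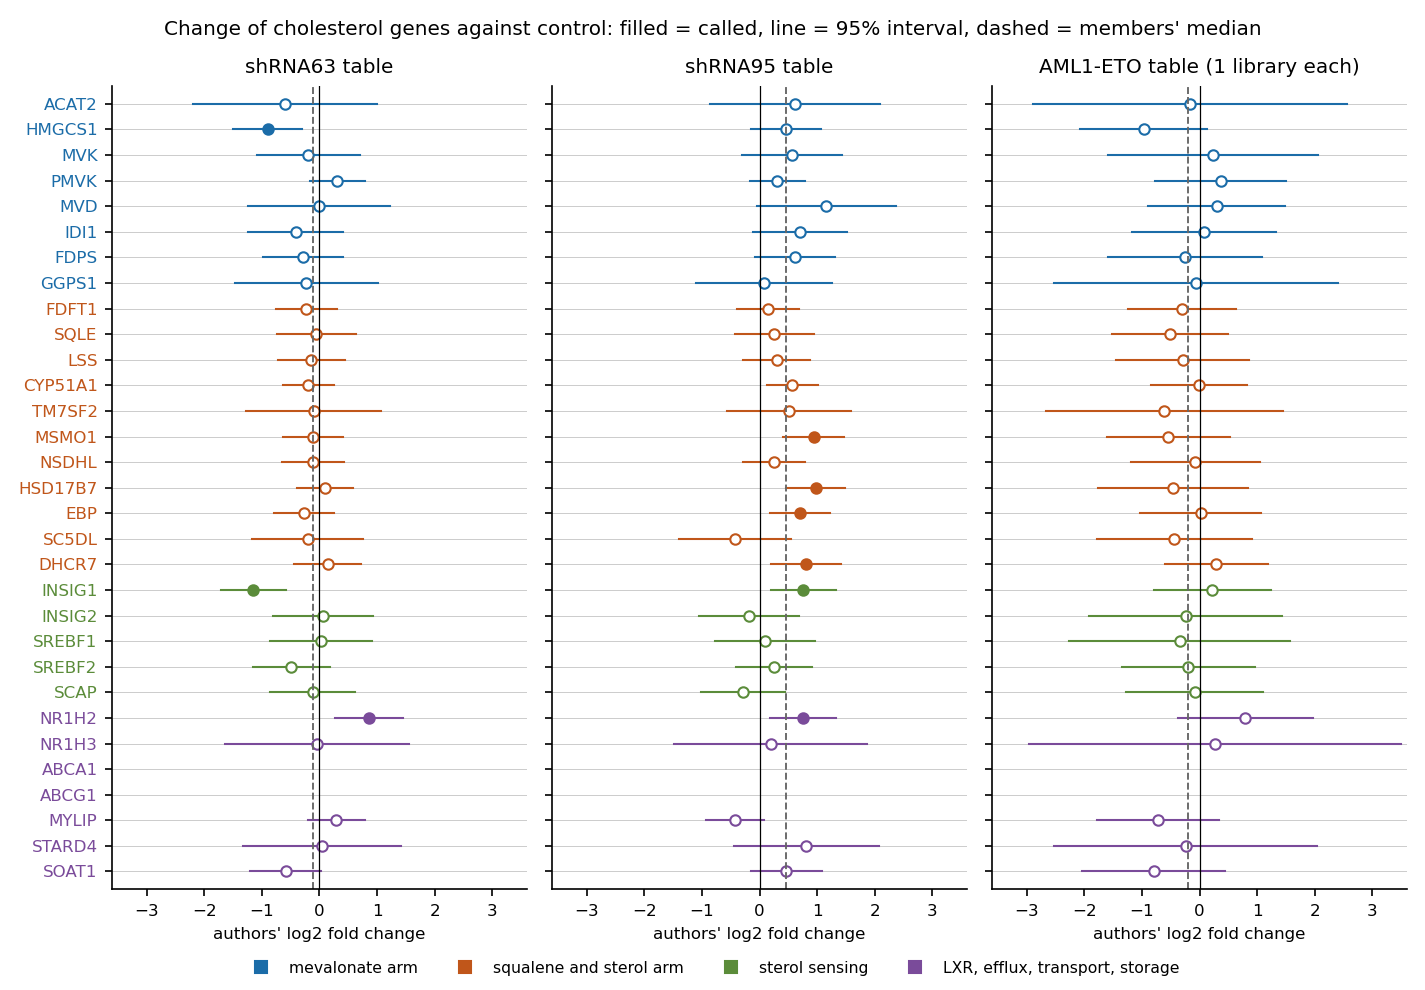
The authors' log2 fold change of each cholesterol gene against its control (points, filled where called) with its 95% interval (lines), in the shRNA63, shRNA95 and AML1-ETO tables; the dashed line is the median over the measured genes. With shRNA95 the 6 filled points lie right of 0, with shRNA63 INSIG1 and HMGCS1 lie left and NR1H2 right, and no point is filled for AML1-ETO.

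Among the 5 genes of sterol sensing, INSIG1 was the 1 gene called in either table, and it was called in opposite directions. INSIG1 fell from 97.3 to 44.0 FPKM with shRNA63, 45.2% of control, with a log2 change of -1.15 (error 0.29, 95% interval -1.71 to -0.58, q = 0.00214) by the authors' deposited table. In the libraries labelled shRNA95 it rose from 94.3 to 159.5 FPKM, 169.1% of control, with a log2 change of 0.76 (error 0.29, 95% interval 0.19 to 1.32, q = 0.00401) by the authors' deposited table. INSIG1 (ENSG00000186480) is alone on its locus, chromosome 7 from 155089486 to 155101945 in hg19.

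INSIG2, the other anchor of SCAP, was at 11.8 against 11.3 FPKM with shRNA63 and 9.58 against 10.9 FPKM with shRNA95. SREBF2, whose own promoter holds the sterol regulatory element printed above, was at 68.7 against 96.4 FPKM with shRNA63, with an unadjusted p of 0.0452 and a q of 0.349 in the authors' deposited table. In the libraries labelled shRNA95 it was at 111.2 against 93.4 FPKM. SREBF1 was nearly level, at 111.5 against 109.4 and 113.0 against 106.1 FPKM. SCAP was at 47.9 against 51.9 and 41.3 against 50.4 FPKM. The 95% intervals of these 4 genes in the authors' deposited tables all span 0, and the widest, that of SREBF1 with shRNA63, runs from -0.86 to 0.91, so smaller changes were not detectable.

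NR1H2 was called higher in both tables. It rose from 16.1 to 29.1 FPKM with shRNA63, a log2 change of 0.86 (error 0.30, 95% interval 0.27 to 1.44, q = 0.00214) by the authors' deposited table. In the libraries labelled shRNA95 it rose from 15.6 to 26.2 FPKM, a log2 change of 0.75 (error 0.29, 95% interval 0.18 to 1.33, q = 0.00728) by the authors' deposited table. NR1H2 (ENSG00000131408) lies on chromosome 19 in a stretch from 50815194 to 50886239 (hg19) shared by 5 genes, and the sources used here do not say how reads of overlapping genes were divided. NR1H3, which encodes LXR-alpha, was lower in level, at 7.48 against 7.70 and 8.53 against 7.47 FPKM, and was called in neither table.

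MYLIP, an LXR target whose product is a ubiquitin ligase for lipoprotein receptors, was at 38.9 against 31.8 FPKM with shRNA63 and at 22.9 against 30.8 FPKM with shRNA95 (q = 0.543 and 0.213 in the authors' deposited tables). STARD4, a sterol carrier of the cytosol, was level with shRNA63 (20.6 against 20.1 FPKM) and at 34.1 against 19.4 FPKM with shRNA95, with an error of 0.64 and q = 0.419 in the authors' deposited table; its locus holds 9 genes. SOAT1, which esterifies cholesterol for storage, was at 29.0 against 43.6 FPKM with shRNA63 (unadjusted p = 0.00730, q = 0.106 in the authors' deposited table) and at 58.3 against 42.2 FPKM with shRNA95 (q = 0.315 in the authors' deposited table).

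The difference between the hairpins was tested per gene by subtracting the authors' log2 values and dividing by the combined error, with Benjamini-Hochberg adjustment over 13870 genes measured in both tables. The p-values rest on a normal approximation, since group values allow no exact test, and the shared controls make the test conservative. INSIG1 was the only cholesterol gene to pass: shRNA63 minus shRNA95 was -1.90 on the log2 scale (error 0.41, 95% interval -2.70 to -1.11, adjusted p of 0.000632). Among the 29 genes 0 were thus called higher with shRNA63 and 1 lower, against a background of 0.353% called higher and 0.728% called lower. At an unadjusted p under 0.05 the counts were 1 higher and 7 lower, against 261 and 493 of the 13870 genes.

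HMGCS1 had the next largest difference, -1.36 (error 0.43, 95% interval -2.21 to -0.51), with an adjusted p of 0.115. MSMO1 differed by -1.05 (95% interval -1.79 to -0.31, adjusted p of 0.260), EBP by -0.97 (95% interval -1.71 to -0.23, adjusted p of 0.369), and HSD17B7 by -0.88 (95% interval -1.59 to -0.16, adjusted p of 0.504). SOAT1 differed by -1.05 (95% interval -1.93 to -0.18, adjusted p of 0.533). DHCR7, called only in the shRNA95 table, differed by -0.67 (95% interval -1.51 to 0.18) and did not pass. With errors scaled to the deposited p, 5 genes passed (HMGCS1, MSMO1, EBP, INSIG1 and SOAT1), while 208 of 13869 genes passed over the whole table. With the errors of the shared controls taken out, HSD17B7 joined them, while 587 genes passed over the whole table in place of 150. The calls for genes other than INSIG1 therefore depend on how the errors are read.

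The difference was below 0 for 24 of the 29 genes, with a median of -0.67, against -0.039 over all genes, of which 54.1% were below 0. Among the 19 synthesis enzymes it was below 0 for 18, with a median of -0.76. NR1H2 did not pass, with a difference of 0.11 and a 95% interval from -0.72 to 0.93, which leaves room for a difference of either sign. PMVK had a difference of -0.0044 with an interval from -0.71 to 0.70.

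**Figure D4:**
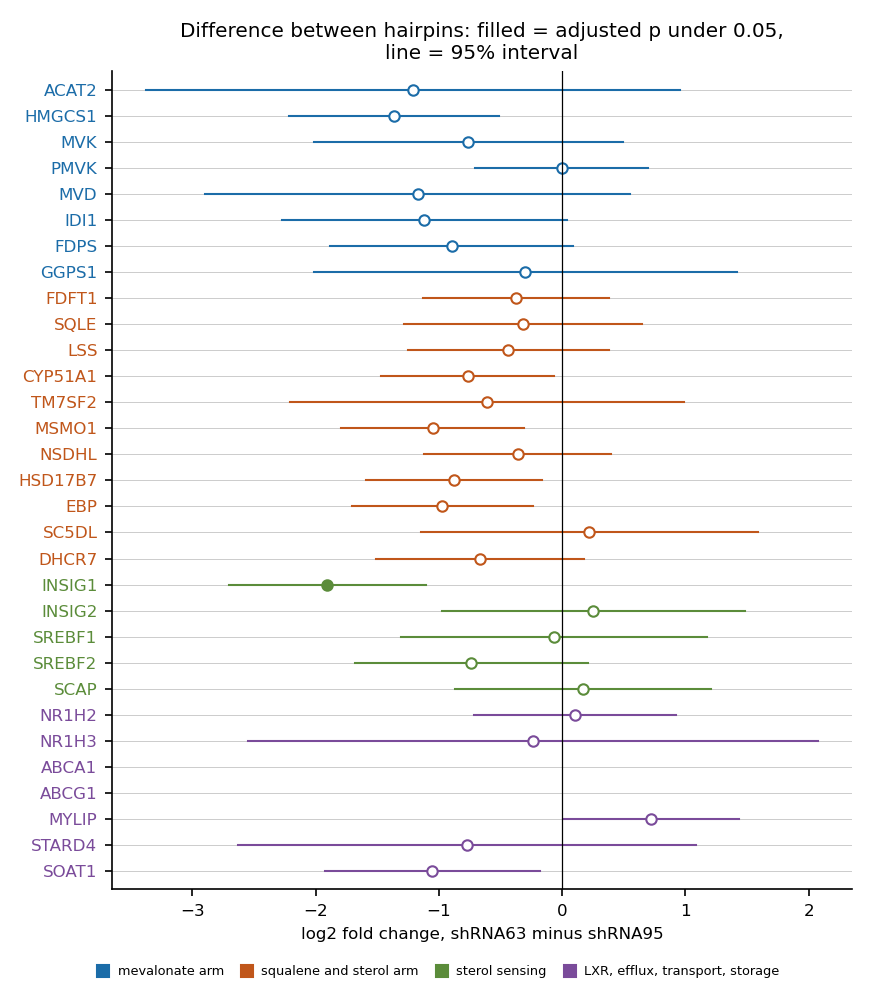
Difference of the authors' log2 fold changes, shRNA63 minus shRNA95, for each cholesterol gene measured in both tables (points, filled where the adjusted p is under 0.05) with its 95% interval (lines). INSIG1 at -1.90 is the filled point; 24 of 29 points lie below 0.

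In the AML1-ETO comparison, 1 library against 1 and without a replicate check, 0 of the 29 genes were called in either direction in the authors' deposited table, and 0 had an unadjusted p under 0.05. The background there was 0.246% called higher and 0.246% called lower of 14230 genes, so few calls could be made at all. The authors' log2 fold changes in that deposited table were above 0 for 9 genes and below 0 for 20, with a median of -0.20 against -0.056 over all genes. Of all 14230 genes 6419 were above 0 and 7811 below. The authors' deposited table had HMGCS1 lowest, at -0.97 (error 0.56, 95% interval -2.07 to 0.12), and NR1H2 highest, at 0.80 (error 0.60, 95% interval -0.37 to 1.96). INSIG1 lay at 0.22 (error 0.52) by the authors' deposited table. RUNX1T1, a part of the targeted fusion, lay at -1.04 (error 0.87, 95% interval -2.74 to 0.65) in the same table and was not called. The median error of the 29 genes in that table was 0.61, against 0.34 in each JMJD1C table. Its test compares those 2 libraries and not the conditions.

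Other genes of the pathway were taken from 6 lists with 65 genes in all. Their counts stand against the shares over all measured genes, 2.49% higher and 3.25% lower with shRNA63 and 3.06% and 1.98% with shRNA95, and in lists this short nothing is read from them about a list. Of 13 genes of SREBP processing and sterol turnover in the endoplasmic reticulum, 1 was called higher and 2 lower with shRNA63, and 1 higher and 0 lower with shRNA95. MBTPS2, the second protease that releases SREBP in the Golgi, fell from 7.10 to 4.30 FPKM with shRNA63 (log2 fold change -0.72, error 0.23, q = 0.0111 in the authors' deposited table). SEC24C, a coat protein of the vesicles that carry SCAP and SREBP, fell from 67.2 to 40.1 FPKM with shRNA63, at a log2 change of -0.74 (error 0.27, q = 0.00391) by the authors' deposited table. SEC24D, of the same coat family, rose from 16.1 to 34.1 FPKM in the libraries labelled shRNA95 (log2 fold change 1.08, error 0.35 in the authors' deposited table), and stood at 28.4 against 16.6 FPKM with shRNA63 (q = 0.0563). ERLIN1, part of the complex that marks sterol-sensing proteins for degradation, rose from 78.3 to 141.0 FPKM with shRNA63, a log2 change of 0.85 (error 0.30) by the authors' deposited table. The test between hairpins did not pass for these 4 genes, with adjusted p from 0.639 to 1.

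Of 12 genes of sterol transport inside the cell, 1 was called higher and 1 lower with shRNA63, and 2 higher and 0 lower with shRNA95. NPC2, which hands cholesterol out of the lysosome, rose in both, to 90.5 FPKM from 35.0 with shRNA63 and to 62.6 FPKM from 33.9 with shRNA95, log2 changes of 1.37 (error 0.23) and 0.89 (error 0.24) in the authors' deposited tables. STARD3NL, a late endosome protein that tethers the organelle to the endoplasmic reticulum, fell from 37.7 to 25.1 FPKM with shRNA63 (q = 0.0492 in the authors' deposited table). TSPO, a cholesterol-binding protein of the outer mitochondrial membrane, rose from 239.3 to 454.2 FPKM in the libraries labelled shRNA95 (log2 fold change 0.92, error 0.23 in the authors' deposited table). The test between hairpins passed for 0 of the 12 genes.

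Of 7 lipoprotein receptor genes 5 were measured, with 0 called for shRNA63 (1 at an unadjusted p under 0.05 in the authors' deposited table) and 2 higher for shRNA95. SCARB1, the receptor that takes cholesterol esters from HDL, rose from 116.2 to 202.3 FPKM, and LRPAP1, a chaperone of lipoprotein receptors, rose from 223.3 to 412.3 FPKM in the libraries labelled shRNA95. Their log2 fold changes were 0.80 (error 0.27) and 0.89 (error 0.29) in the authors' deposited table. The test between hairpins passed for 0 of the 5 measured receptor genes. Of 9 LXR partners, LXR targets and oxysterol enzymes 4 were measured, 0 were called and 0 had an unadjusted p under 0.05 in the authors' deposited JMJD1C tables. SMPDL3A, an LXR target, was under 1 FPKM and so not counted; it stood at 0.0962 and 0.486 FPKM with control and shRNA63 (q = 0.0492 in the authors' deposited table). Of 13 genes of the isoprenoid branches, such as prenyltransferases, 0 were called in either JMJD1C table, and 1 and 2 had an unadjusted p under 0.05 in the authors' deposited tables for shRNA63 and shRNA95.

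SREBP also drives fatty acid synthesis, and 11 such genes formed the last list. The median ratio was -0.38 with shRNA63, with 9 of 11 below 0, and 0.38 with shRNA95, with 10 of 11 above 0. Over all measured genes 51.1% were above 0 with shRNA63 and 54.0% with shRNA95. The 1 call in the list was ME1, malic enzyme. It rose from 1.36 to 3.05 FPKM with shRNA63, a log2 change of 1.17 (error 0.28) by the authors' deposited table. With shRNA95 0 were called, and 1 had an unadjusted p under 0.05 in the authors' deposited table. The test between hairpins passed for 0 of the 11 genes, with an adjusted p of 0.361 for ME1.

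**Figure D5:**
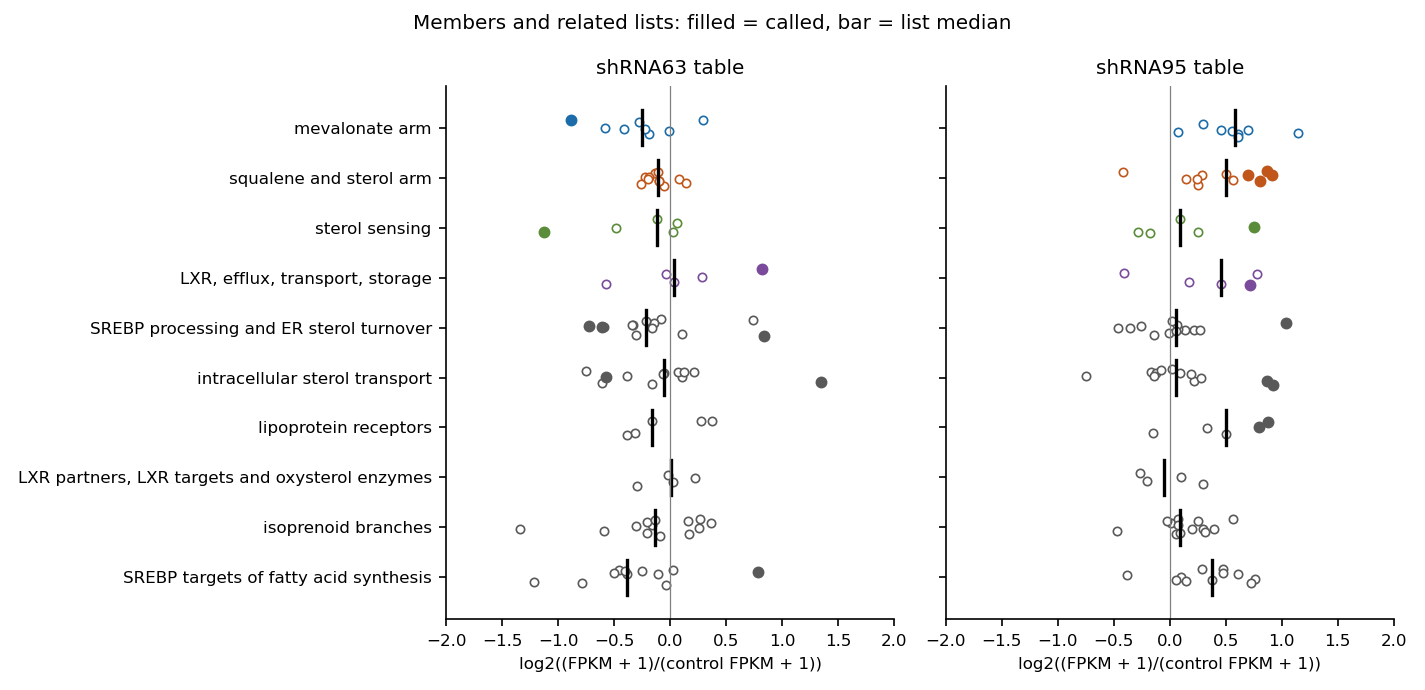
Log2 ratio, log2((FPKM + 1)/(control FPKM + 1)), of each measured gene (points, filled where called) in the 4 groups of cholesterol genes (coloured) and the 6 related lists (grey), with the list median (bar). The mevalonate arm has its median at -0.25 for shRNA63 and 0.58 for shRNA95, and the fatty acid list at -0.38 and 0.38.

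Markers of other states and cell types moved as well, and their part in the results was not tested. The summed level of 6 myeloblast markers was 4821 FPKM in controls and 12190 FPKM with shRNA63, with 3 called higher, and 4676 and 6454 FPKM in the shRNA95 table, with 1 called higher. The proteases PRTN3 and ELANE made up most of these sums, at 8181 and 3744 FPKM with shRNA63. CD34, a progenitor marker, was at 103.2 against 150.7 FPKM with shRNA63 (q = 0.0743 in the authors' deposited table) and was the call with shRNA95, where it rose from 146.1 to 249.0 FPKM. MPO is listed at 0 in all groups with the authors' mark for too many reads to test, so its 0 is no level. The 4 neutrophil granule genes summed to 1294 and 3046 FPKM and to 1255 and 2079 FPKM, with 2 of 4 called higher in each table. Those 2, AZU1 and CTSG, carried the sums, while LTF and CAMP were under 1 FPKM in every group. The 4 monocyte genes, almost all LYZ, summed to 7.57 and 59.7 FPKM and to 7.34 and 71.0 FPKM. LYZ was called higher in both tables, and CSF1R, which was under 1 FPKM, with shRNA63 only. The 3 mast cell genes summed to 28.1 and 3.62 FPKM and to 27.2 and 4.32 FPKM, with 2 called lower in each table. The sums for 5 lymphocyte markers were 11.9 and 3.96 FPKM and 11.5 and 4.56 FPKM, with MS4A1 at 0. With shRNA63 2 of them were called lower, CD79A and CD3E, the latter under 1 FPKM, and with shRNA95 0 were called. CD3D made up most of the control sums, at 8.5 FPKM in the shRNA63 table, and was called in neither. The 5 epithelial or stromal genes summed to 15.3 and 14.5 FPKM and to 14.9 and 16.9 FPKM. EPCAM carried these sums, and the other 4 were under 1 FPKM in every group. Over all measured genes 2.49% were called higher and 3.25% lower with shRNA63, and 3.06% and 1.98% with shRNA95. In bulk RNA, fewer cells of a type and less RNA per cell cannot be told apart. Depth per library is unknown; read from untested genes with very low values, it was about 0.79 times that of the controls with shRNA63 and 0.707 times with shRNA95, and its part in the results was not tested.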

How the data were processed

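RNA was extracted with a column kit (RNeasy plus), per the labels' protocols. TopHat2 2.0.8b, Cuffdiff 2.1.1 and hg19 are named in the submitters' processing notes, with no role or order; the sources used here do not say whether strand was kept. The deposited tables have the columns of a Cuffdiff comparison, per the file headers: 1 FPKM per group, for which the authors pooled its libraries and scaled within each table (control FPKM 1.03 times as high in the shRNA63 table at the median). They also hold the authors' deposited log2 fold change, a score (their test statistic), and each gene's p-value and q-value.

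Computed here with Python 3.11.15, pandas 2.3.3, numpy 2.4.6 and scipy 1.17.1 were ratios with a pseudocount of 1, intervals, the hairpin difference (two-sided, normal, errors below the 10th percentile raised to it, checked on simulated data), list counts and motif matches. No refit over libraries was possible. In the JMJD1C tables the deposited p corresponded at the median to a normal deviate 1.42 times the statistic, so the errors used are the wider reading at the median, though not for every gene; the smallest deposited p-value was 5e-05. Named were all 31 genes, the related genes called in either JMJD1C table, JMJD1C and RUNX1T1. Marker genes that carry or lack a sum, and some that were called, are named beside the sum. The symbols and lists were chosen with earlier results of these data known. The 2 FPKM columns for AML1-ETO, from a different series, were left unused, so the authors' log2 fold change replaced the ratio and the level filter came from the JMJD1C tables, a departure from the rule that defines measured genes there. Of the symbols, 27 matched the RefSeq promoter table of GRCh38.p14 through Ensembl identifiers. EBP and NSDHL each have a further row on a patch sequence at 0, left out. The alternatives were other thresholds, level filters, pseudocounts, centring and errors, and, added after overlapping loci had been seen, the genes alone on their locus.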

Additional observations from a re-analysis of the deposited data

Results flagged for a closer look

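INSIG1 was singled out because the effects of the 2 hairpins on it differ: shRNA63 minus shRNA95 was -1.90 on the authors' log2 scale (error 0.41, adjusted p of 0.000632). It was called lower with shRNA63, at 44.0 against 97.3 FPKM, and higher in the libraries labelled shRNA95, at 159.5 against 94.3 FPKM, in the authors' deposited tables. JMJD1C mRNA was at 45.1% of control in the former and 85.4% in the latter. Under the 6 alternatives run for it, the adjusted p of the hairpin difference stayed between 7.64e-09 and 0.000868. Of these, the looser threshold, no floor on errors and removal of the shared control part could not have lost the call by construction.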

How the results depend on the processing

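Among 124 values recomputed under an alternative, 4 counts were classed as moved, and smaller changes of a count were not. For single genes 10 calls were gained and 1 was lost, and each recomputed median kept its sign. The number called higher with shRNA95, 6 in the main setting, was 5 at q under 0.01 and 7 at q under 0.1. Among the 11 genes alone on their locus, an alternative chosen after seeing the data, 0 were called higher with shRNA63 (1 among all 29) and 1 was called lower (2 among all 29). With shRNA95, 4 of these 11 genes were called higher (6 among all 29). NR1H2, HMGCS1 and DHCR7 share their loci with other genes and so drop out by construction. The number differing between hairpins rose from 1 to 5 with errors scaled to the deposited p and to 6 with the shared control part removed. Removing that part makes the errors smaller by construction, and for scaling to p the cause was not tested. For shRNA95, DHCR7 was lost at q under 0.01 and CYP51A1 was gained at q under 0.1. The median over the cholesterol genes stayed between -0.122 and -0.103 with shRNA63 and between 0.426 and 0.465 with shRNA95. Over all genes, the difference passed for 297 with no floor on errors, 201 at an adjusted p under 0.1, 208 with errors scaled to p, 587 with the shared control part removed and 114 of 10194 at an FPKM of at least 5, in place of 150 of 13870.

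No paired analysis was possible because the tables hold 1 value per group, and for the same reason no library was left out. Depth per library is unknown, so no limit from counting error is given; the median error of a log2 change of the 29 genes was 0.34 in each JMJD1C table.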
